A study of Mus musculus with 8 samples.

Results

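The nuclear genes that encode the subunits of the oxidative phosphorylation machinery were measured in Thy1+ testis cells of mouse pups. They were chosen by symbol: Nduf genes of the a, b, c, s and v series (complex I), Sdha to Sdhd (complex II), Uqcr genes and Cyc1 (complex III), Cycs (the carrier cytochrome c), Cox4 to Cox8 genes (complex IV) and Atp5 genes (complex V). The rule found 85 genes on 107 probes, of 28223 probes that matched a gene. Complex I had 36 of these genes, complex II 4, complex III 9, complex IV 18 and complex V 17, and Cycs made 1 more. All 85 passed the filter on dim probes, and 84 of them were well above background on all 8 arrays. Of the 86 protein-coding symbols in the reference gene table that match the rule, 1, Ndufb1, had no probe here. A further 14 symbols in that table that match it are pseudogenes, and the sources used here do not say whether the probes also read such copies. Subunits encoded by mitochondrial DNA have other symbols and were not analysed here.

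Oxidative phosphorylation makes most of the ATP of respiring cells. Complexes I and II take electrons from NADH and succinate and pass them to ubiquinone, complex III passes them on to cytochrome c, and complex IV hands them to oxygen. Complexes I, III and IV pump protons as they do so, and complex V, the ATP synthase, uses the proton gradient to make ATP. Spermatogonial stem cells are known to rely more on glycolysis, and germ cells shift towards oxidative phosphorylation as they differentiate, with testis-restricted isoforms of some subunits.

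The study compared wild type (WT) pups with Glis3KO2 pups, labelled as a knockout of the zinc finger transcription factor Glis3, on the C57BL/6 strain at postnatal day 4 (PND4). Total RNA of Thy1+ cells, which the labels call testis spermatogonial progenitor cells, was amplified and hybridised to 1-colour Agilent arrays, 4 per genotype. The design text speaks of 3 testes per genotype, and the labels do not tie the 4 samples to individual animals. The p-values therefore reflect spread among these 8 samples only, and that spread could be technical. The labels do not give the Glis3 allele beyond its name.

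Every level below is log2 of the processed spot signal minus the 75th percentile of that array, and every difference is Glis3KO2 minus WT on that scale. The 75th percentile ranged from 243 to 533 units, and 86.0% to 90.3% of spots were well above background. Glis3 itself lay lower on every Glis3KO2 array (-1.98, -2.18, -1.18 and -1.32) than on every WT array (-1.09, -1.01, 0.57 and 0.60), a difference of -1.43 (SE 0.45) with a limma adjusted p of 0.697 after Benjamini-Hochberg adjustment. Germ cell markers were present, with 17 of 19 measured genes above background on all 8 arrays, and so were markers of interstitial stroma (13 of 15), smooth muscle (12 of 12) and macrophages (16 of 16). Markers of Sertoli cells (14 of 14), Leydig cells (8 of 9), endothelial cells (10 of 11) and erythroid cells (6 of 6) were present as well. All these counts are over genes that had already passed the filter, which asks for signal above background on 4 or more arrays. The lists held 15 Sertoli, 10 Leydig, 11 endothelial and 10 erythroid genes. Between genotypes, the germ cell markers had a median difference of -0.81 (19 of 19 lower), stroma 0.90 (15 of 15 higher), smooth muscle 0.96 (12 of 12 higher) and macrophages 0.28 (14 of 16 higher), with 0 of these genes called by limma. At an unadjusted p under 0.05 stood 6, 4, 2 and 0 of them, against 6.9% of all genes. The stroma list includes Thy1, the marker by which the cells are labelled. Thy1 measured 1.55, 2.05, 1.33 and -0.028 in WT replicates 1 to 4 and 2.21, 2.46, 1.36 and 1.47 in Glis3KO2 replicates 1 to 4. Its difference was 0.65 (SE 0.44), with a limma adjusted p of 0.713. Median differences were -0.26 for Sertoli (11 of 14 lower), -0.33 for Leydig (7 of 9 lower) and -0.57 for erythroid markers (5 of 6 lower). For endothelial markers the median was -0.0015 (6 of 11 lower). In these further lists 1 gene, endothelial, had an unadjusted limma p under 0.05, and 0 were called. The part of all these markers in the subunits' differences was not tested. On both slides the WT arrays held positions 1 and 2 and the Glis3KO2 arrays positions 3 and 4, so position and genotype cannot be told apart. In such bulk samples, fewer cells of a type and less RNA per cell cannot be told apart.

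The differences of the subunits were small, and none passed the test. The median difference over the 85 genes was -0.019 on the log2 scale, with 37 genes higher and 48 lower in mean signal, against a median of -0.084 over all 17508 genes tested, of which 59.2% were lower. Complex medians were 0.0013 in complex I, -0.0023 in complex II, 0.0064 in complex III, -0.17 in complex IV and -0.019 in complex V. Only the median of complex IV lay further below 0 than that of all genes, and with a normexp background correction before the 75th percentile the medians of the 85 subunits (0.15) and of all 5 complexes were above 0, with -0.23 for all genes. The lowest and highest differences were those of Cox7b2 (-0.77) and Ndufa5 (0.66). Differences beyond 0.5 in either direction were found in 5 of 85 subunits (5.88%), against 22.3% of all genes, and the median size of the difference was 0.153 against 0.266. The subunits were also brighter, with median levels per array from 1.69 to 2.46, against -0.90 to -0.79 for all genes. Their median SD was 0.27 in WT and 0.34 in Glis3KO2, against 0.43 and 0.37 for all genes. The part of signal level in the smaller differences, and in the shares and intervals below, was not tested.

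No subunit passed the test: 0 of 85 had a limma adjusted p under 0.05 after Benjamini-Hochberg adjustment, the smallest being 0.697, and 0% of all genes tested did. At an unadjusted p under 0.05 stood 2 subunits, Ndufs7 and Ndufa5 (2.35%), against 6.9% of all genes, or 1208. The same 2 genes were those whose 4 Glis3KO2 arrays did not overlap the 4 WT arrays (2.35%), against 3.5% of all genes. In this fit both shares lay below those of all genes, but under other settings they lay on either side. With normexp and quantile normalization, 9 of 85 subunits had an unadjusted limma p under 0.05, a larger share than the 6.17% of all genes. With array weights it was also 9, a smaller share than 14.5%. Without overlap were 4 with quantile normalization of log2 signal, a larger share than 3.54%. Without both WT replicates 3 and 4 it was also 4, a smaller share than 11.1%. The 95% interval of the difference lay within 1 log2 unit (2-fold) on either side of 0 for 71 of 85 subunits (83.5%) and for 53.8% of all genes. By complex this held for 27 of 36 subunits in complex I, 4 of 4 in complex II, 9 of 9 in complex III, 14 of 18 in complex IV and 16 of 17 in complex V. In a fit with a replicate block, 1877 of all genes and again the 2 subunits Ndufs7 and Ndufa5 had an unadjusted p under 0.05.

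**Figure D1:**
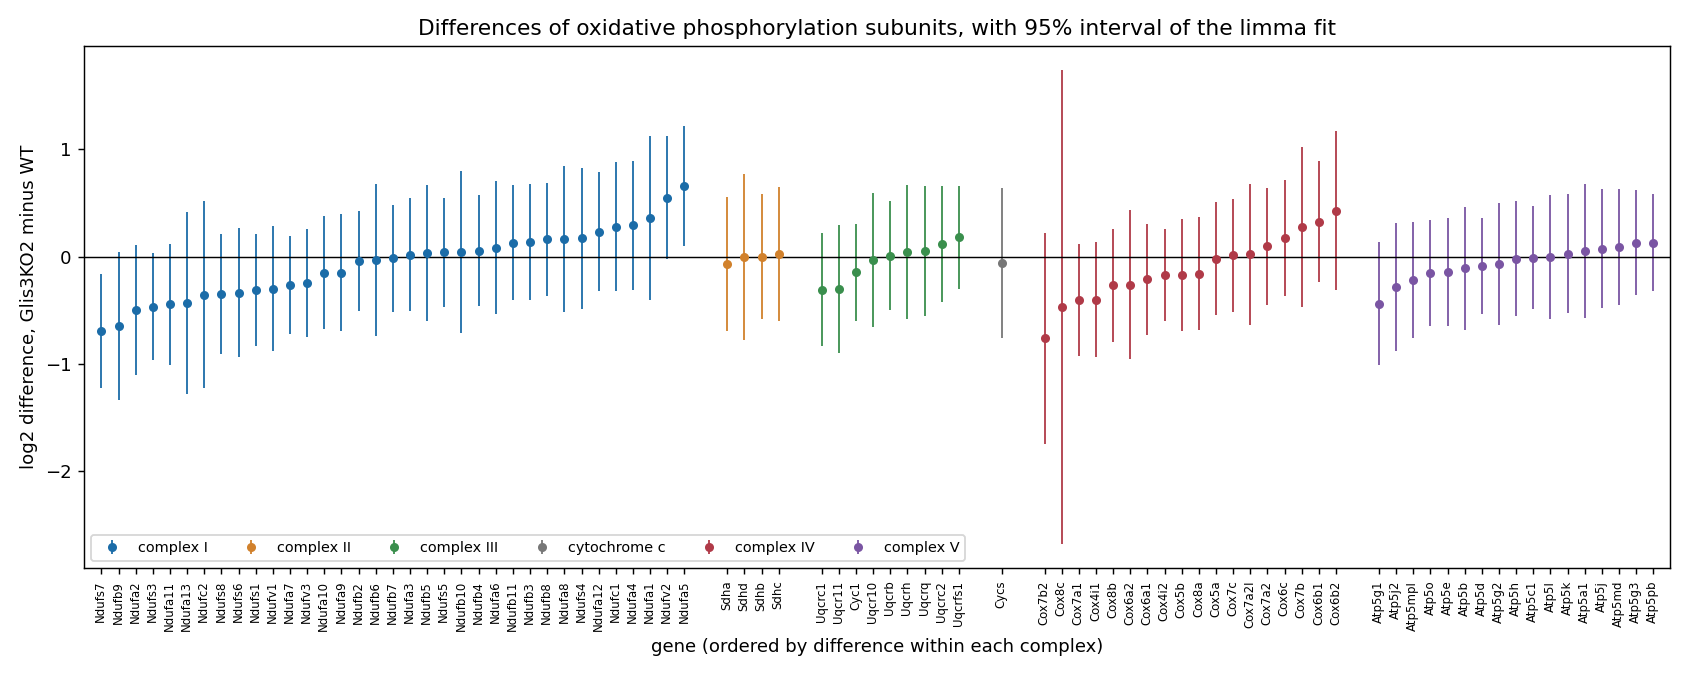
Difference in log2 signal (Glis3KO2 minus WT, vertical axis) of 84 of the subunits, ordered within each complex; points are mean differences over 4 arrays per genotype and lines the 95% interval of the limma fit. The intervals of Ndufs7 and Ndufa5 in complex I are the ones that leave out 0, and Cox8c has the widest.

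**Figure D2:**
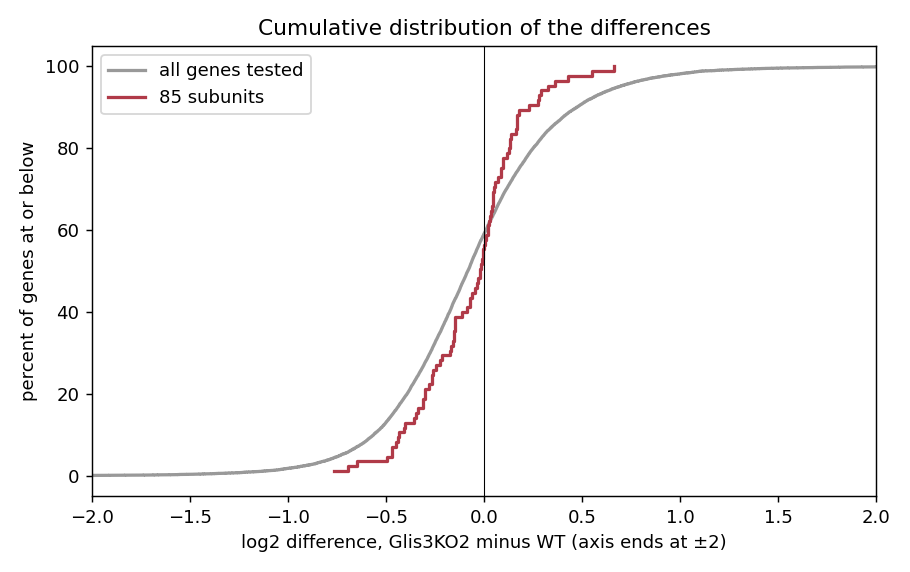
Cumulative percent of genes (vertical axis) at or below a given log2 difference, Glis3KO2 minus WT (horizontal axis, which ends at 2 log2 units on either side), for the 85 subunits and for all 17508 genes tested. The subunits' curve is steeper, with a median of -0.019 against -0.084.

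Complex I, the NADH dehydrogenase, held both non-overlapping subunits, Ndufs7 lower (1 of 85, against 2.6% of all genes lower) and Ndufa5 higher (1 of 85, against 0.902% of all genes higher). Ndufs7 is a core subunit whose iron-sulfur cluster is the last to carry electrons before ubiquinone. Its log2 signal was 0.085, 0.29, -0.35 and -0.21 in WT replicates 1 to 4 and -0.80, -0.61, -0.46 and -1.09 in Glis3KO2 replicates 1 to 4. All 4 Glis3KO2 arrays lay below all 4 WT arrays, and the lowest was Glis3KO2 replicate 4. The means were -0.047 ± 0.29 in WT and -0.74 ± 0.27 in Glis3KO2 (SD over 4 arrays per genotype), a difference of -0.70 (SE 0.24, 95% interval -1.23 to -0.16), or 1.62-fold lower, seen in 4 of 4 same-numbered pairs. The limma p was 0.0159 unadjusted and 0.697 after Benjamini-Hochberg adjustment. On slide 1 the difference was -0.50 and on slide 2 -0.89.

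Ndufa5, an accessory subunit of the peripheral arm, went the other way. Its log2 signal was 1.55, 1.92, 1.39 and 2.04 in WT replicates 1 to 4 and 2.41, 2.81, 2.07 and 2.26 in Glis3KO2 replicates 1 to 4. The Glis3KO2 arrays all lay above the WT arrays, though WT replicate 4 and Glis3KO2 replicate 3 were close. The means were 1.73 ± 0.31 in WT and 2.39 ± 0.32 in Glis3KO2 (SD over 4 arrays per genotype), a difference of 0.66 (SE 0.25, 95% interval 0.10 to 1.22), or 1.58-fold higher, in 4 of 4 pairs. The limma p was 0.0253 unadjusted and 0.697 after Benjamini-Hochberg adjustment, and the slides gave 0.77 and 0.55. Leaving out WT replicate 1 or 3, or Glis3KO2 replicate 1 or 2, took Ndufa5 to unadjusted p-values of 0.0575, 0.0746, 0.0529 and 0.0675. Ndufs7 stayed under 0.05 in each of the 8 fits without 1 array, with p-values from 0.0138 to 0.0482. With a normexp background correction before the 75th percentile, its p was 0.054.

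The promoters of these 2 genes are shown because both hold a motif known from nuclear genes of mitochondrial proteins. Sequences are from RefSeq on GRCm38.p6, 250 bases before to 50 after the annotated start, read 5′ to 3′ on the gene's strand. In Ndufs7 the capitals mark an 11-base YY1 motif, and in Ndufa5 the 10-base NRF1 core, whose sixth letter is free.
Ndufs7 (chr10:80249199-80249498, plus strand): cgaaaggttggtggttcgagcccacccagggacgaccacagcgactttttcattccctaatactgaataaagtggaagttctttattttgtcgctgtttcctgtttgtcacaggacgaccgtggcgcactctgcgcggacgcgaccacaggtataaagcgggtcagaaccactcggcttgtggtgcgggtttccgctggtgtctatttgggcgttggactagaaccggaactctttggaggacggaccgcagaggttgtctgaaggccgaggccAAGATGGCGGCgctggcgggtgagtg
Ndufa5 (chr6:24527477-24527776, minus strand): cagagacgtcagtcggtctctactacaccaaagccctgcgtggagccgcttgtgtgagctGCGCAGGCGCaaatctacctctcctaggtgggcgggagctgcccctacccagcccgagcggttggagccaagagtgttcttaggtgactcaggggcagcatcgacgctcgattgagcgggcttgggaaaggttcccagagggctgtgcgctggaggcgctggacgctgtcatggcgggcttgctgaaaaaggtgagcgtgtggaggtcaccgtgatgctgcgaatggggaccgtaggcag
Each motif was searched on both strands in these 300-base windows. The Ndufa5 table entry has a second start, whose window overlaps this one and holds the same NRF1 core match. A match describes the letters in the window and is not a measured binding site.

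Of the 85 subunit genes, 69 had a promoter in the table. The NRF1 core stood in 17 of them (24.6%), against 7.17% of 17492 protein-coding genes, and the full NRF1 motif, a special case of the core with T as its free letter, in 5 (7.25%) against 1.47%. The core was found in Atp5c1, Atp5g2, Atp5g3, Atp5h, Atp5k, Atp5o, Cox6a1, Ndufa11, Ndufa5, Ndufa6, Ndufa8, Ndufb4, Ndufs5, Ndufs6, Sdha, Sdhd and Uqcrc1. The YY1 motif stood in 4 (5.80%) against 1.06%, all 4 in complex I (Ndufa9, Ndufs4, Ndufs6 and Ndufs7). The GABPA motif CCGGAAGT stood in 5 (7.25%) against 5.69%, and the ERRA motif TCAAGGTCA in 2 (2.90%) against 0.377%. Subunit promoters held a median of 19 CG dinucleotides, against 13 in promoters of protein-coding genes. Differences in signal were of both signs among them: for the 4 holders of the YY1 motif they were -0.15 in Ndufa9, 0.17 in Ndufs4, -0.34 in Ndufs6 and -0.70 in Ndufs7.

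Other subunits of complex I's redox core overlapped between genotypes. Ndufv2, an iron-sulfur subunit of the NADH-oxidising module, had log2 signals of -0.46, 0.075, -0.53 and 0.36 in WT replicates 1 to 4 and 0.49, 0.41, 0.59 and 0.15 in Glis3KO2 replicates 1 to 4. Of the WT arrays, replicate 4 lay within the Glis3KO2 range and the other 3 lay below it, and the difference was 0.55 (SE 0.26, 95% interval -0.027 to 1.13) with an unadjusted p of 0.0595. On slide 1 it was 1.04 and on slide 2 0.064. Ndufv1, which binds NADH and the flavin, measured 1.20, 1.54, 1.70 and 2.27 in WT replicates 1 to 4 and 1.17, 1.58, 1.39 and 1.36 in Glis3KO2 replicates 1 to 4. Its highest value was WT replicate 4, and the difference was -0.30 (SE 0.26, 95% interval -0.88 to 0.28). Ndufs1, the largest iron-sulfur subunit, measured 0.86, 0.53, 0.92 and 1.23 in WT replicates 1 to 4 and 0.51, 0.88, 0.63 and 0.29 in Glis3KO2 replicates 1 to 4. Glis3KO2 replicate 4 was lowest and WT replicate 4 highest, with a difference of -0.31 (SE 0.24, 95% interval -0.84 to 0.21).

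Ndufs8, an iron-sulfur subunit on the path to ubiquinone, measured -0.37, -0.11, -0.14 and 0.014 in WT replicates 1 to 4 and -0.36, 0.017, -0.77 and -0.89 in Glis3KO2 replicates 1 to 4. Glis3KO2 replicates 3 and 4 were below all WT arrays and replicates 1 and 2 were not, for a difference of -0.35 (SE 0.25, 95% interval -0.91 to 0.21). Ndufb9, an accessory subunit of the membrane arm, measured 0.57, 0.49, 1.76 and 1.05 in WT replicates 1 to 4 and 0.45, 0.51, -0.071 and 0.37 in Glis3KO2 replicates 1 to 4. Its WT values were spread, with replicate 3 highest, and the difference was -0.65 (SE 0.31, 95% interval -1.34 to 0.039) with an unadjusted p of 0.0617. It was -0.39 without WT replicate 3. A further 28 subunits of complex I had differences from -0.50 (Ndufa2) to 0.36 (Ndufa1), 15 of them above 0. Ndufa4, which this symbol rule places in complex I though it is known as a complex IV subunit, differed by 0.29 (SE 0.27).

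Complex II, the succinate dehydrogenase shared with the citric acid cycle, had the smallest differences of the complexes, all 4 between -0.071 and 0.028. The 2 slides differed in sign, with -0.50 on slide 1 and 0.36 on slide 2 for Sdha. For Sdhb they gave -0.45 and 0.45. With normexp and the 75th percentile the median of complex II was 0.16. Sdha, the flavoprotein, measured 1.90, 1.05, 1.29 and 0.86 in WT replicates 1 to 4 and 1.04, 1.65, 1.14 and 0.98 in Glis3KO2 replicates 1 to 4. WT replicate 1 and Glis3KO2 replicate 2 were the 2 highest, and the difference was -0.071 (SE 0.28, 95% interval -0.70 to 0.55). Sdhb, the iron-sulfur subunit, measured 0.90, 0.58, 1.54 and 0.73 in WT replicates 1 to 4 and 0.86, 1.03, 0.68 and 1.18 in Glis3KO2 replicates 1 to 4. WT replicate 3 was highest, and the difference was -0.0012 (SE 0.26, 95% interval -0.58 to 0.58). Sdhc, a membrane anchor, measured 1.77, 2.05, 2.18 and 2.06 in WT replicates 1 to 4 and 1.82, 2.81, 1.85 and 1.70 in Glis3KO2 replicates 1 to 4. The array of Glis3KO2 replicate 2 lay above all others, and the difference was 0.028 (SE 0.28, 95% interval -0.60 to 0.65). The intervals of the 4 genes reached down to -0.78 and up to 0.77 (both Sdhd), which bounds the difference and does not show equality.

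In complex III, which contains the Rieske protein and the cytochrome subunits, 5 of 9 genes were higher and 4 lower in mean signal. Uqcrfs1, the Rieske iron-sulfur protein, measured 2.57, 2.77, 2.65 and 2.57 in WT replicates 1 to 4 and 2.70, 3.20, 2.80 and 2.57 in Glis3KO2 replicates 1 to 4. The highest array was Glis3KO2 replicate 2, and the difference was 0.18 (SE 0.22, 95% interval -0.30 to 0.66). Cyc1, the subunit that donates electrons to cytochrome c, measured 1.73, 1.56, 1.73 and 1.91 in WT replicates 1 to 4 and 1.61, 1.77, 1.35 and 1.62 in Glis3KO2 replicates 1 to 4. Glis3KO2 replicate 3 was lowest, and the difference was -0.15 (SE 0.20, 95% interval -0.60 to 0.31). Uqcrc1, a core protein, measured 2.15, 1.71, 2.13 and 1.66 in WT replicates 1 to 4 and 1.54, 1.99, 1.33 and 1.55 in Glis3KO2 replicates 1 to 4. WT replicates 1 and 3 were highest and Glis3KO2 replicate 3 lowest, with a difference of -0.31 (SE 0.24, 95% interval -0.84 to 0.22); averaged over its 2 probes, it was -0.18. Uqcr11, a small subunit, measured 1.30, 1.49, 1.90 and 1.86 in WT replicates 1 to 4 and 1.34, 1.85, 0.86 and 1.28 in Glis3KO2 replicates 1 to 4. Glis3KO2 replicate 3 was again lowest, and the difference was -0.30 (SE 0.27, 95% interval -0.90 to 0.29).

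Cycs, the somatic cytochrome c that carries electrons from complex III to complex IV, measured 2.25, 2.20, 2.66 and 3.32 in WT replicates 1 to 4 and 2.11, 2.83, 2.30 and 2.94 in Glis3KO2 replicates 1 to 4. WT replicate 4 was highest, and the difference was -0.062 (SE 0.31, 95% interval -0.76 to 0.64). Averaged over its 3 probes the difference had the opposite sign, 0.12.

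Complex IV, cytochrome c oxidase, is the complex with most tissue-specific isoforms, and its differences ran from -0.77 to 0.43. Cox7b2, a testis-expressed isoform, measured -2.34, -1.76, -0.61 and -0.43 in WT replicates 1 to 4 and -1.97, -2.19, -1.45 and -2.59 in Glis3KO2 replicates 1 to 4. WT replicates 3 and 4 stood above every other array, while WT replicates 1 and 2 lay among the Glis3KO2 arrays. The difference was -0.77 (SE 0.44, 95% interval -1.75 to 0.22) with an unadjusted p of 0.113, -0.24 on slide 1 and -1.29 on slide 2. It was -1.12 without WT replicate 1 (unadjusted p 0.0182, limma adjusted p 0.598) and -0.88 with normexp background correction and the 75th percentile (unadjusted p 0.0251, limma adjusted p 0.418). Without WT replicate 4 it was -0.48 and without both WT replicates 3 and 4 it was -0.0011. Beside this, the germ cell markers (19 of 20 listed genes measured, all 19 lower in mean signal in Glis3KO2) averaged 0.89 and 1.08 above their own means in WT replicates 3 and 4. They averaged -0.32 and -0.11 in WT replicates 1 and 2 and -0.53 to -0.23 in the Glis3KO2 arrays. The Sertoli cell markers averaged 0.65 and 0.47 in WT replicates 3 and 4 and -0.18 and -0.32 in WT replicates 1 and 2. In the Glis3KO2 arrays the Sertoli averages ran from -0.63 to 0.67. The stroma and smooth muscle markers had median differences above 0, 0.90 and 0.96. The part of these markers in the Cox7b2 result was not tested.

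The Cox7b2 promoter is shown because this gene had the lowest difference of the subunits.
Cox7b2 (chr5:71548156-71548455, minus strand): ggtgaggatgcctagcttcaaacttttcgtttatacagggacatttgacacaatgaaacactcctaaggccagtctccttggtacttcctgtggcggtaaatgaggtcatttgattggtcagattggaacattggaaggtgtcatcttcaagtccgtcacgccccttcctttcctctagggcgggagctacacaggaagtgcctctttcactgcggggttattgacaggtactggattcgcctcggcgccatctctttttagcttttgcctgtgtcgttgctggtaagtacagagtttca
This RefSeq window on GRCm38.p6 held none of the 5 motifs searched and 10 CG dinucleotides, against 24 for Ndufs7 and 21 for the Ndufa5 window printed. Lacking all 5 is not particular to Cox7b2: the windows of Cox7b, Cox6b1, Cox7a2 and Atp5b, among others, held none of them either. No match says only that these letters are not in this window.

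Cox7b, the widely expressed form, measured 1.30, 1.33, 0.28 and 1.11 in WT replicates 1 to 4 and 1.43, 1.94, 0.68 and 1.07 in Glis3KO2 replicates 1 to 4. WT replicate 3 was lowest, the array where Cox7b2 was among the highest, and the difference was 0.28 (SE 0.34, 95% interval -0.47 to 1.03). Cox8c, the testis isoform of Cox8, was the subunit not well above background on every array, and was above it on 3 of 4 arrays of each genotype. It measured -7.08, -4.18, -1.63 and -2.73 in WT replicates 1 to 4 and -4.85, -3.06, -4.95 and -4.65 in Glis3KO2 replicates 1 to 4. WT replicates 3 and 4 were again highest and WT replicate 1 was lowest. The difference of -0.47 (SE 0.99, 95% interval -2.69 to 1.75) had the widest interval of the 85 subunits. It was -1.53 without WT replicate 1 (unadjusted p 0.0384, limma adjusted p 0.598), 0.29 without WT replicate 3, -0.08 without WT replicate 4 and 1.25 without both WT replicates 3 and 4. Cox8a, the ubiquitous form, measured 3.42, 3.21, 2.95 and 3.10 in WT replicates 1 to 4 and 2.95, 3.47, 2.67 and 2.94 in Glis3KO2 replicates 1 to 4. The highest array was Glis3KO2 replicate 2, and the difference was -0.16 (SE 0.24, 95% interval -0.69 to 0.37). Cox8b, the heart and muscle form, measured -3.996, -3.68, -3.74 and -3.63 in WT replicates 1 to 4 and -3.97, -4.02, -3.63 and -4.48 in Glis3KO2 replicates 1 to 4. Glis3KO2 replicate 4 was lowest, and the difference was -0.27 (SE 0.24, 95% interval -0.79 to 0.26).

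Cox6b2, the testis-enriched counterpart of Cox6b1, did not follow Cox7b2 and Cox8c. Its log2 signal was 2.31, 1.56, 1.13 and 1.32 in WT replicates 1 to 4 and 1.68, 2.73, 1.86 and 1.75 in Glis3KO2 replicates 1 to 4. Its highest arrays were Glis3KO2 replicate 2 and WT replicate 1, and its lowest were WT replicates 3 and 4. The difference was 0.43 (SE 0.33, 95% interval -0.31 to 1.17), and it was 0.19 without Glis3KO2 replicate 2. Cox6b1 measured 0.57, 0.91, 0.79 and 0.84 in WT replicates 1 to 4 and 0.99, 1.63, 1.17 and 0.62 in Glis3KO2 replicates 1 to 4. Glis3KO2 replicate 2 was highest, and the difference was 0.32 (SE 0.25, 95% interval -0.24 to 0.89).

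Cox4i1, the common form of the subunit through which ATP inhibits the enzyme, measured 4.49, 4.47, 4.75 and 4.83 in WT replicates 1 to 4 and 4.12, 4.75, 4.06 and 3.99 in Glis3KO2 replicates 1 to 4. Glis3KO2 replicates 1, 3 and 4 lay below all WT arrays and replicate 2 lay within them. The difference was -0.40 (SE 0.24, 95% interval -0.94 to 0.13) with all arrays and -0.58 without Glis3KO2 replicate 2, where its unadjusted limma p was 0.0255. Cox4i2, the lung and low-oxygen form, measured -1.55, -1.84, -1.65 and -1.57 in WT replicates 1 to 4 and -1.93, -1.81, -1.82 and -1.74 in Glis3KO2 replicates 1 to 4. The arrays overlapped within a narrow range, and the difference was -0.17 (SE 0.19, 95% interval -0.61 to 0.26).

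Among the forms known from heart and muscle, Cox7a1 measured 0.14, -0.10, 0.59 and 0.18 in WT replicates 1 to 4 and -0.17, -0.48, -0.27 and 0.097 in Glis3KO2 replicates 1 to 4. It was lower in 4 of 4 pairs, though WT replicate 2 and Glis3KO2 replicate 4 overlapped the other genotype, and the difference was -0.41 (SE 0.24, 95% interval -0.93 to 0.12). Cox6a2 measured -1.28, -1.89, -0.96 and -1.26 in WT replicates 1 to 4 and -1.84, -2.23, -1.32 and -1.05 in Glis3KO2 replicates 1 to 4. The ranges overlapped, with a difference of -0.26 (SE 0.31, 95% interval -0.96 to 0.44). Their ubiquitous counterparts overlapped between genotypes as well. Cox7a2 measured 2.27, 2.54, 1.76 and 2.55 in WT replicates 1 to 4 and 2.36, 2.66, 2.23 and 2.25 in Glis3KO2 replicates 1 to 4. WT replicate 3 was lowest, and the difference was 0.094 (SE 0.25, 95% interval -0.46 to 0.64). Cox6a1 measured 4.38, 4.17, 4.42 and 4.49 in WT replicates 1 to 4 and 4.03, 4.63, 3.84 and 4.10 in Glis3KO2 replicates 1 to 4. The highest and the lowest arrays were both of Glis3KO2, replicates 2 and 3, and the difference was -0.21 (SE 0.23, 95% interval -0.73 to 0.30). Cox7a2l, grouped here with the Cox7a family by its symbol, measured 1.17, 1.39, 0.94 and 1.41 in WT replicates 1 to 4 and 1.37, 1.97, 0.92 and 0.74 in Glis3KO2 replicates 1 to 4. Its highest array was Glis3KO2 replicate 2 and its lowest Glis3KO2 replicate 4, for a difference of 0.021 (SE 0.29, 95% interval -0.64 to 0.68). The remaining 4 subunits of the complex (Cox5a, Cox5b, Cox6c and Cox7c) differed by -0.02, -0.17, 0.17 and 0.011.

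**Figure D3:**
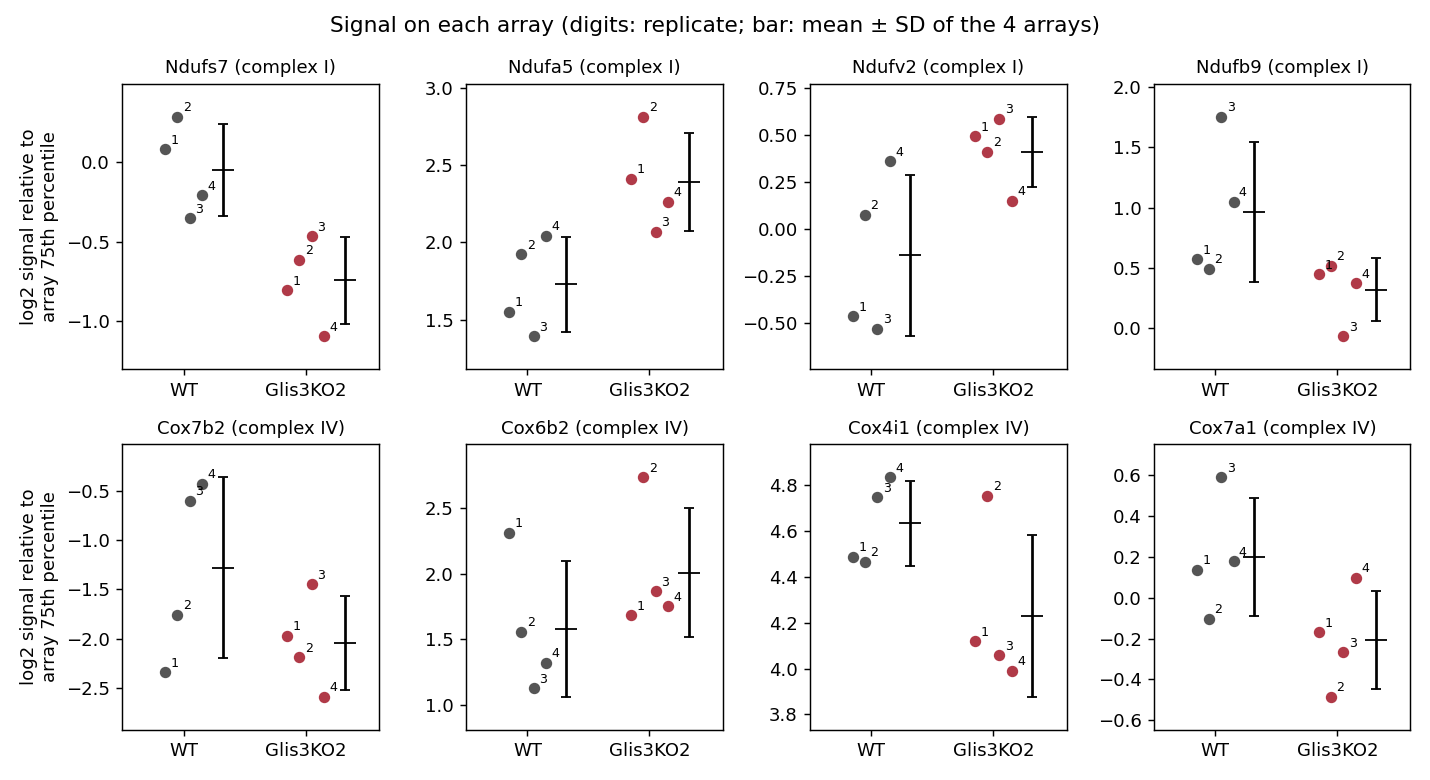
Level on each array, as log2 signal minus the 75th percentile (vertical axis, set separately for each gene), of 4 subunits of complex I and 4 of complex IV; points are arrays with their replicate number, and bars give the mean and SD of 4 arrays per genotype. Ndufs7 and Ndufa5 do not overlap between genotypes, and in Cox7b2 WT replicates 3 and 4 stand above the other 6 arrays.

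Complex V, the ATP synthase, had 6 genes higher and 11 lower in mean signal. The subunits of the catalytic head overlapped between genotypes. Atp5b, the catalytic beta subunit, measured 4.35, 4.68, 5.01 and 5.27 in WT replicates 1 to 4 and 4.72, 5.01, 4.68 and 4.45 in Glis3KO2 replicates 1 to 4. WT replicate 4 was highest, and the difference was -0.11 (SE 0.26, 95% interval -0.68 to 0.46). Atp5a1, the alpha subunit, measured 5.39, 5.30, 5.39 and 4.37 in WT replicates 1 to 4 and 5.16, 5.48, 5.01 and 4.99 in Glis3KO2 replicates 1 to 4. WT replicate 4 was lowest by a wide margin, and the difference was 0.05 (SE 0.28, 95% interval -0.58 to 0.68). Atp5c1, the rotating gamma subunit, measured 1.05, 1.40, 1.28 and 1.55 in WT replicates 1 to 4 and 1.20, 1.57, 1.15 and 1.33 in Glis3KO2 replicates 1 to 4. The 2 genotypes spanned nearly the same range, with a difference of -0.0096 (SE 0.21, 95% interval -0.49 to 0.47).

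The genes Atp5g1, Atp5g2 and Atp5g3 encode the same mature subunit of the membrane ring. Atp5g1 measured -0.20, 0.35, 0.18 and 0.72 in WT replicates 1 to 4 and -0.35, 0.17, -0.42 and -0.12 in Glis3KO2 replicates 1 to 4. It was lower in 4 of 4 pairs but the ranges overlapped, and the difference was -0.44 (SE 0.26, 95% interval -1.02 to 0.14) with an unadjusted p of 0.12. Atp5g2 measured 3.53, 3.81, 3.79 and 3.78 in WT replicates 1 to 4 and 3.67, 4.21, 3.60 and 3.16 in Glis3KO2 replicates 1 to 4. In Glis3KO2, replicate 2 was the highest of all arrays and replicate 4 the lowest, with a difference of -0.07 (SE 0.25, 95% interval -0.64 to 0.50). Atp5g3 measured 3.76, 3.36, 3.13 and 3.38 in WT replicates 1 to 4 and 3.67, 3.68, 3.35 and 3.45 in Glis3KO2 replicates 1 to 4. WT replicate 1 was highest, and the difference was 0.13 (SE 0.22, 95% interval -0.36 to 0.62). The difference between the 3 genes' responses was not tested.

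Further subunits of complex V sit in its stalk and membrane part. Atp5o, which couples the head to the peripheral stalk, measured 1.42, 1.39, 1.93 and 1.81 in WT replicates 1 to 4 and 1.41, 1.72, 1.30 and 1.50 in Glis3KO2 replicates 1 to 4. WT replicates 3 and 4 were highest, and the difference was -0.15 (SE 0.22, 95% interval -0.65 to 0.35). Atp5j2, a membrane subunit, measured 4.001, 3.62, 3.26 and 3.51 in WT replicates 1 to 4 and 3.33, 3.86, 2.95 and 3.12 in Glis3KO2 replicates 1 to 4. WT replicate 1 was highest and Glis3KO2 replicate 3 lowest, with a difference of -0.28 (SE 0.27, 95% interval -0.88 to 0.32). Atp5mpl, a small membrane subunit, measured 4.08, 4.27, 3.95 and 4.58 in WT replicates 1 to 4 and 3.93, 4.44, 3.75 and 3.87 in Glis3KO2 replicates 1 to 4. WT replicate 4 and Glis3KO2 replicate 2 were highest, and the difference was -0.22 (SE 0.24, 95% interval -0.76 to 0.32). The other 8 subunits of the complex had differences from -0.15 (Atp5e) to 0.13 (Atp5pb).

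The sign of many single differences depended on the arrays and the processing used. Of the 38 described here, 20 kept the sign of their difference under every alternative run and 18 did not, and none of the 38 had a limma adjusted p under 0.05 after Benjamini-Hochberg adjustment in any of them. For 35 of the 38 the difference moved by over 1.5 times under at least 1 alternative. The exceptions were Ndufs7 (-0.93 to -0.55), Ndufa5 (0.52 to 0.77) and Ndufv2 (0.42 to 0.72). They were also the subunits of smallest limma p with all arrays, and the alternatives reuse the same arrays, so this is no independent check. A difference near 0 passes a factor of 1.5 easily. Among the 35, the range was -1.53 to 1.25 for Cox8c, -1.12 to -0.0011 for Cox7b2, -0.88 to -0.21 for Ndufb9, 0.073 to 0.67 for Cox6b2, -0.58 to -0.25 for Cox4i1, -0.44 to -0.062 for Uqcrc1 and -0.31 to 0.32 for Cycs.

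The subunits shared a pattern from array to array. Each gene's log2 signal was set relative to its own mean over the arrays. On that scale the mean of the 85 subunits was 0.025, -0.0012, -0.049 and 0.16 in WT replicates 1 to 4 and -0.13, 0.36, -0.23 and -0.13 in Glis3KO2 replicates 1 to 4. Glis3KO2 replicate 2 was the highest and the other 3 Glis3KO2 arrays were the 3 lowest, so the WT mean was 0.034 ± 0.091 and the Glis3KO2 mean -0.034 ± 0.27 (SD, n = 4 arrays per genotype). Over all genes the same means lay between -0.069 and 0.082. Glis3KO2 replicate 2 was the highest of the 8 arrays for 45 of 85 subunits (52.9%), against 15.1% of all genes. This array was also the lowest for 21.3% of all genes, the largest such share among the 8 arrays, and for 2 of 85 subunits. It was highest for 18 of 36 subunits in complex I, 2 of 4 in complex II, 6 of 9 in complex III, 9 of 18 in complex IV and 10 of 17 in complex V. Glis3KO2 replicate 3 was the lowest for 28 subunits (32.9%), against 11.3% of all genes.

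Since Glis3KO2 replicate 2 was highest for 45 of 85 subunits, leaving it out lowers their Glis3KO2 means by the choice of array. Without Glis3KO2 replicate 3, lowest for 28 subunits, their median difference was 0.044, against -0.084 for all genes. There, 3 subunits were higher and 1 lower without overlap, against 6.11% of all genes. Without Glis3KO2 replicate 2 the median difference of the subunits was -0.16, against -0.078 for all genes. In that fit 14 subunits did not overlap between genotypes, against 5.86% of all genes under that rule with 3 arrays. Of these, 13 were lower in Glis3KO2 (Atp5e, Atp5mpl, Cox4i1, Cox6a1, Cox8a, Ndufa2, Ndufa7, Ndufb9, Ndufs3, Ndufs6, Ndufs7, Ndufv3 and Uqcrc1) and 1 was higher (Ndufa5). Ndufv3 is read here on the brightest of its 3 probes. With all 8 arrays that probe gave -0.25, and the other 2 gave 0.41 and 0.73. Without Glis3KO2 replicate 2, 3 of 85 subunits (Cox4i1, Ndufa2 and Ndufs7) had an unadjusted limma p under 0.05, against 4.99% of all genes. After Benjamini-Hochberg adjustment, 0 subunits had a limma p under 0.05. Glis3KO2 replicate 2 was also the array with the highest centred mean of the stroma markers (1.57, highest for 15 of 15 genes) and of the smooth muscle markers (1.07, highest for 8 of 12), and with the lowest of the germ cell markers (-0.53). The stroma markers ranged from -1.04 to 0.69 in WT and from -0.0084 to 0.22 in the other 3 Glis3KO2 arrays, and the smooth muscle markers from -1.30 to 0.42 and from -0.52 to 0.72. The part of these cell types in the subunits' pattern was not tested. The array's 75th percentile was 458 units, within the range of the others.

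**Figure D4:**
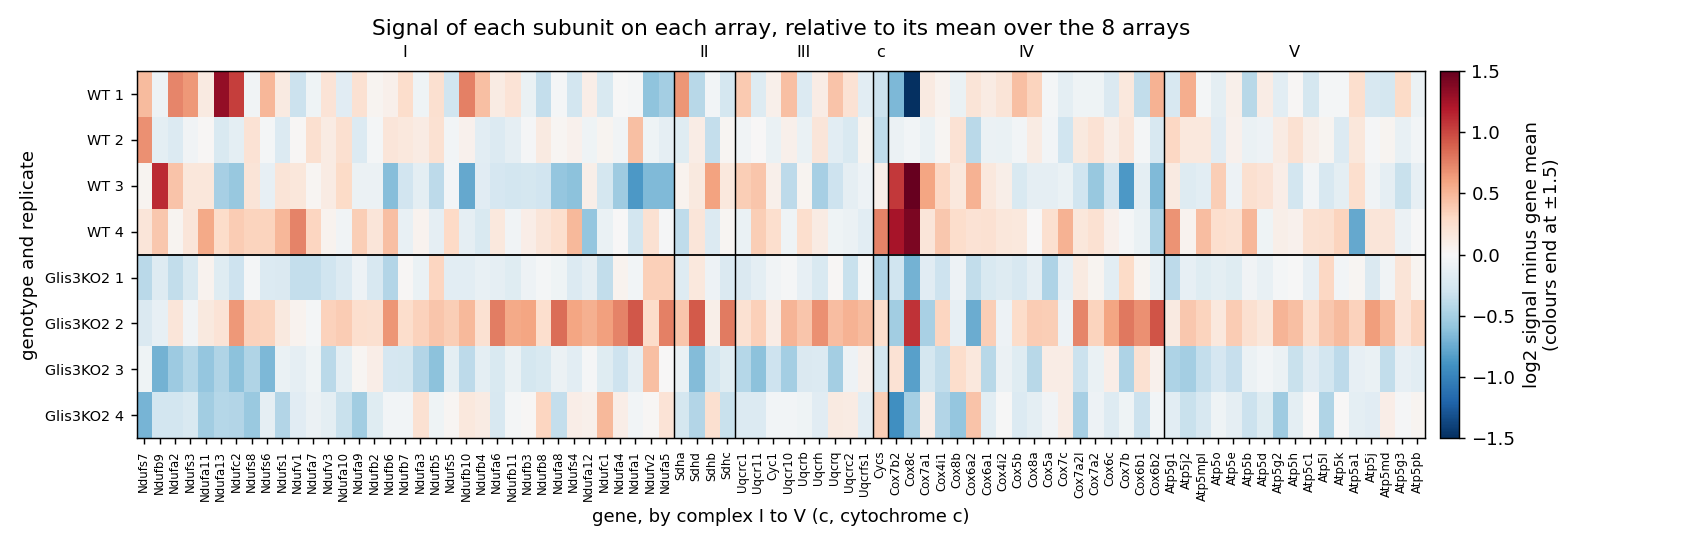
Log2 signal of 84 of the subunits (columns, by complex I to V, with c for cytochrome c) on each array (rows, genotype and replicate) minus the gene's mean over the 8 arrays; colours end at 1.5 log2 units on either side. The row of Glis3KO2 replicate 2 is the highest for 45 genes, and Cox7b2 and Cox8c are high in WT replicates 3 and 4.

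**Figure D5:**
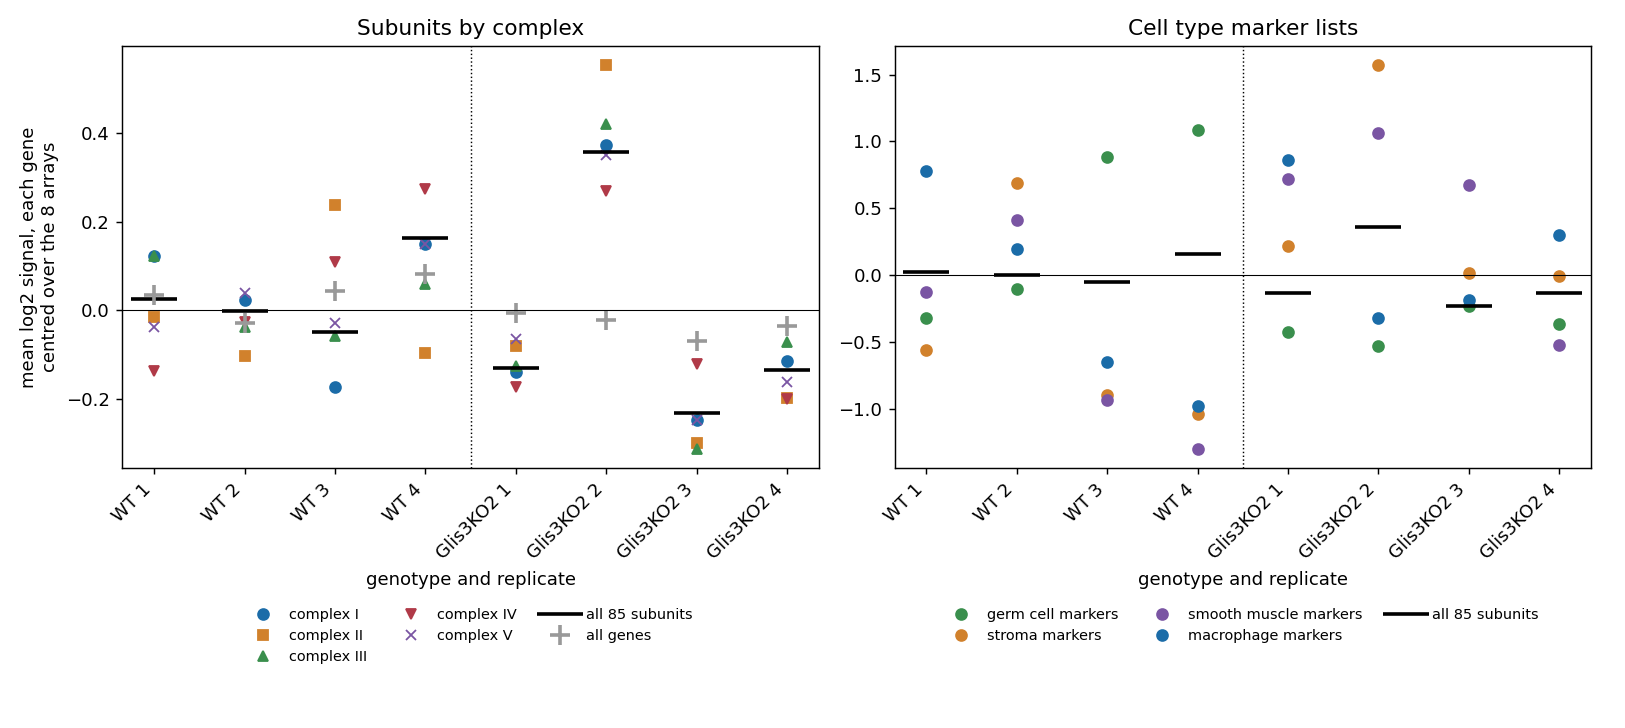
Mean log2 signal per array, with every gene centred on its own mean, for the subunits by complex beside all genes (left) and for 4 cell type marker lists beside the 85 subunits (right). Black bars give the mean of the 85 subunits, highest in Glis3KO2 replicate 2 at 0.36, where the stroma markers are at 1.57.

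The genes outside the list whose pattern over the 8 arrays was most like the mean of the subunits were Elp3, Tspyl1, Bcap31, Rfesd and Pdyn, with Pearson r of 0.96, 0.956, 0.955, 0.952 and 0.952. This is a description over 8 arrays, chosen from all genes tested.

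Other genes of the pathway were taken from lists by function. Of 46 listed assembly factors, which build the complexes but are not part of them, 42 were measured, with a median difference of -0.13, 17 higher and 25 lower in mean signal, and 0 passed the limma test after Benjamini-Hochberg adjustment. Ndufaf5, an assembly factor of complex I, was the 1 of 42 (2.38%) at an unadjusted limma p under 0.05 (0.018), against 6.9% of all genes. It was also the 1 of 42 without overlap between genotypes, against 3.5% of all genes. Its difference was -0.60 (SE 0.21, 95% interval -1.07 to -0.13), lower in 4 of 4 pairs. It measured 0.30, -0.24, -0.058 and 0.18 in WT replicates 1 to 4 and -0.59, -0.62, -0.39 and -0.61 in Glis3KO2 replicates 1 to 4. Foxred1, another complex I factor, differed by -0.78 (SE 0.35), and Coa6 and Cox16, which act on complex IV, by 0.67 (SE 0.36) and 0.44 (SE 0.24).

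Of 18 listed genes of pyruvate oxidation and the citric acid cycle, which supply the NADH and succinate, 17 were measured, with a median difference of -0.023, 7 higher and 10 lower, none at an unadjusted p under 0.05. Idh2, the mitochondrial NADP-linked isocitrate dehydrogenase, differed by 0.56 (SE 0.33) and Mdh2, malate dehydrogenase, by -0.48 (SE 0.25). All 24 listed genes of carriers, import and membrane organisation were measured, with a median of -0.050, 8 higher and 16 lower, and none at an unadjusted p under 0.05. Vdac2, an outer membrane channel, differed by 0.64 (SE 0.33) and Immt, which holds the cristae junctions, by -0.67 (SE 0.31).

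All 19 listed regulators of mitochondrial biogenesis were measured, with a median difference of -0.019, 8 higher and 11 lower, and 0 passed the limma test after Benjamini-Hochberg adjustment. Esrrb, an orphan nuclear receptor also known from pluripotent cells, was the 1 of 19 (5.26%) at an unadjusted p under 0.05, against 6.9% of all genes. Its limma p was 0.000449 unadjusted and 0.697 adjusted. It was also the 1 of 19 (5.26%) without overlap between genotypes, against 3.5% of all genes. It measured -1.70, -1.77, -1.89 and -1.58 in WT replicates 1 to 4 and -3.68, -3.64, -4.18 and -2.46 in Glis3KO2 replicates 1 to 4. All Glis3KO2 arrays lay below all WT arrays, in 4 of 4 pairs, and the difference was -1.76 (SE 0.34, 95% interval -2.52 to -0.99). The germ cell markers had a median difference of -0.81, with 19 of 19 lower in mean signal in Glis3KO2, and their part in the Esrrb result was not tested. Its relative Esrrg differed by 0.45 (SE 0.35), the mitochondrial DNA polymerase gene Polg by -0.54 (SE 0.27) and Tfb1m, a mitochondrial methyltransferase, by 0.30 (SE 0.27).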

How the data were processed

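The 8 RNA samples were read on 1-colour arrays. The authors' deposited scanner files give an intensity per spot that Agilent Feature Extraction (version 12.0.0.7 in the file headers) had background-subtracted, and the deposited value table equalled it on 100% of spots. Here log2 intensity minus each array's 75th percentile was used, without outlier-flagged spots (73 to 109 per array) and with spots of a probe averaged. RefSeq accessions named the probes through a GRCm38.p6 gene table: of 41174, 28223 matched 1 gene, 0 several and 12951 none. The headers' probe annotation is on mm9, so its coordinates were not used. A probe was kept if well above background on 4 or more of the 8 arrays, and the one of highest mean stood for its gene. Precision is limited by the number of arrays.

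The test was limma 3.58.1 (R 4.3.3) with genotype as the only term, Benjamini-Hochberg adjusted across all genes at 0.05. Slide 1 held replicates 1 and 3, slide 2 replicates 2 and 4. Deviations of same-numbered arrays correlated across genes at r = 0.16, 0.34, 0.18 and 0.13, all over the 0.1 set for pairing, so a replicate block was added as an alternative. WT replicate 3 with Glis3KO2 replicate 4 (0.14) and WT replicate 4 with Glis3KO2 replicate 3 (0.12) were over it too. Named subunits are the 4 of smallest p in complexes I, IV and V, the 2 of smallest p in complexes II and III, non-overlapping ones, the redox and catalytic core, and isoform families; 1 of them is not reported here. From other pathway lists, up to 2 genes of smallest p per direction were named. The subunits, lists and rules were chosen with earlier results of these data known. Normexp (offset 50) took median spot signals. The fit was tested on simulated data.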

Additional observations from a re-analysis of the deposited data

Results flagged for a closer look

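In 7 of 90 groups of 4 arrays examined, 1 array stood apart from the other 3. This was judged by its gap to the nearest of them over the whole range (Dixon's test at the 95% level). Chance alone flags about 1 in 20 independent groups. These groups reuse the same arrays, and the means include genes also examined singly, so the count cannot be held against that rate. Glis3KO2 replicate 2 was the array in 5 of the 7. It measured 4.75 for Cox4i1 where the other Glis3KO2 arrays measured 3.99 to 4.12, 2.81 for Sdhc against 1.70 to 1.85, and -3.06 for Cox8c against -4.95 to -4.65. Its centred mean of the 85 subunits was 0.36 against -0.23 to -0.13, and that of complex IV was 0.27 against -0.20 to -0.12. WT replicate 4 measured 4.37 for Atp5a1 against 5.30 to 5.39 in the other WT arrays. WT replicate 1 measured 3.53 for Atp5g2 against 3.78 to 3.81.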

How the results depend on the processing

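The count of subunits with an adjusted p under 0.05 (limma, Benjamini-Hochberg) was 0 under every alternative run, and over all genes it was 0 except 1, no subunit, with quantile normalization of log2 signal. Subunits at an unadjusted p under 0.05 numbered 9 with normexp and quantile normalization (6.17% of all genes stood there), 9 with array weights (14.5% of all genes), and 1 without both WT replicates 3 and 4 (4.4%; chosen with earlier results known). Without single arrays they numbered 1 (WT replicate 3 or Glis3KO2 replicate 1) to 5 (WT replicate 1 or 2), against 3.79% to 13.7% of all genes. Subunits whose groups did not overlap numbered 4 with quantile normalization of log2 signal (3.54% of all genes), 4 when centred on the median of all genes (3.45%), and 4 without both WT replicates 3 and 4 (11.1%). Without single arrays they numbered 2 to 14: 6 without WT replicate 1 or 2, 14 without Glis3KO2 replicate 2, 4 without Glis3KO2 replicate 3 and 5 without Glis3KO2 replicate 4. With 3 arrays in a genotype, 4.51% to 14.2% of all genes did not overlap. The cause of these shifts was not tested. With the replicate block, 2 subunits were at an unadjusted p under 0.05 and 0 were called. The median difference of the subunits ranged from -0.16 (without Glis3KO2 replicate 2) to 0.15 (normexp with the 75th percentile). That last setting moved the median of all genes to -0.23, and the medians of all 5 complexes were then above 0, from 0.078 to 0.21. With 4 arrays a genotype, the median SE of a subunit's difference was 0.25.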

Other observations

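Of 9 listed symbols of subunits and partners of the complexes that fall outside the rule, 5 were measured under that symbol. These 5 had a median difference of -0.052, 2 higher and 3 lower in mean signal, and none had an unadjusted limma p under 0.05. The listed Usmg5 and Mp68 are older names of Atp5md and Atp5mpl, which the rule covers and which were measured among the subunits. Cyct, the testis form of cytochrome c, measured -1.81, -0.68, -0.08 and 1.22 in WT replicates 1 to 4 and -1.05, -0.57, -0.66 and -0.35 in Glis3KO2 replicates 1 to 4. WT replicate 4 was highest and WT replicate 1 lowest, so the WT arrays spanned all Glis3KO2 arrays, and the difference was -0.32 (SE 0.53, 95% interval -1.51 to 0.87). Ndufab1, the acyl carrier protein of complex I, differed by 0.063 (SE 0.23), Atpif1, the inhibitor of the ATP synthase, by 0.049 (SE 0.28), and Higd1a by -0.20 (SE 0.36).

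Of the 17 subunits with more than 1 probe, 6 had probes whose differences were of both signs (Atp5a1, Atp5g2, Cycs, Ndufa12, Ndufv3 and Uqcrh). The widest was Ndufv3, a complex I subunit, whose 3 probes gave differences from -0.25 to 0.73.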
